A study of Arabidopsis thaliana with 4 samples.

Results

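The miR158 family of Arabidopsis thaliana was represented by 2 of the 213 miRNA probes on the array, ath-miR158a and ath-miR158b (miR158a and miR158b in what follows), taken by name. The family was chosen on its measured intensities over the same 4 arrays, so its levels and differences are a description and were not tested. The probes were read on 4 single-colour arrays of seedlings, 1 array per group: ABR17_salt (plants transgenic for the abscisic acid-responsive gene ABR17, 100 mM NaCl), ABR17_control (the same transgenic plants, 0 mM NaCl), WT_salt (wild type, 100 mM NaCl) and WT_control (wild type, 0 mM NaCl). All seedlings were raised on Murashige and Skoog medium for 2 weeks according to the labels, although the growth text also mentions 7 days. ABR17 belongs to the PR10 class of pathogenesis-related proteins. What promoter drove it, how many transgenic lines were used and whether RNA was pooled was not stated in the labels. Although 3 biological replicates are mentioned in the design, each group has 1 array, so the differences lack a check by replicates, and the errors quoted come from the 12 repeat spots of a probe on 1 array.

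A plant miRNA is cut from a hairpin transcript, loaded into an ARGONAUTE protein and guides the cleavage or repression of transcripts that pair with it. In Arabidopsis the base at the 5′ end of a small RNA influences which ARGONAUTE takes it up, and uracil there favours ARGONAUTE1. The miR158 family is a young one, known from the Brassicaceae and not from plants at large, and is predicted to pair with transcripts of pentatricopeptide repeat (PPR) proteins, RNA-binding proteins of mitochondria and plastids. It has been named among the miRNAs of Arabidopsis that respond to salt.

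The mature sequences the probes were designed for are shown because their near identity limits what each probe can tell apart. They come from the deposited spot files, 5′ to 3′, with the seed (bases 2 to 8) in capitals.
miR158a: uCCCAAAUguagacaaagca
miR158b: cCCCAAAUguagacaaagca
They share 19 of 20 bases, and the 1 difference is U1C, counted from the 5′ end. The seed CCCAAAU was shared by both and by none of the other 211 miRNA probes. The nearest sequences outside the family stood 9 edits from miR158a, so the probes resembled each other far more than anything else on the array. Their genes lie apart. RefSeq's annotation (TAIR10.1) gives MIR158a as AT3G10745, between AT3G10740 (ASD1) and AT3G10750, and MIR158b as AT1G55591, between AT1G55590 and AT1G55600 (WRKY10, a WRKY transcription factor gene), and neither overlaps another annotated gene.

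The brightness of the arrays differed outside the miRNA probes, which bears on every value below. The 1120 blank spots averaged 86.5 ± 3.92 (SD) on ABR17_salt, 111 ± 13.2 on ABR17_control, 84.8 ± 5.52 on WT_salt and 231 ± 22.2 on WT_control. A miRNA was called detected where at least 50% of its spots exceeded the blank mean plus 3 blank SD. That threshold was 98.3, 151, 101 and 298 in the same order, and 59, 30, 54 and 39 of the 213 miRNAs were detected. The calibration probe PUC2MM read 4019 on ABR17_salt, 1176 on ABR17_control, 1844 on WT_salt and 11421 on WT_control. By the blanks and PUC2MM WT_control thus stood apart, and every comparison with the untreated wild type rests on it. The 5S rRNA spots did not set it apart, with medians of 50225.6, 36332.5, 49333.4 and 41087.7 in the same order. The part of these array differences in the miR158 results was not tested.

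miR158a was bright on WT_control, dimmer but clear on ABR17_salt, and at or below the detection threshold on the other arrays. Its spots read 132 to 168.6 on ABR17_salt (median 148, all 12 above the threshold). On ABR17_control they read 94.0 to 115.1 (median 103), and none of 12 passed. On WT_salt the range was 91.8 to 117 (median 101), and 6 of 12 passed, the fewest that still count as detected. On WT_control it was 469 to 751 (median 603), with all 12 above the threshold. The spots of ABR17_salt and WT_control did not overlap with those of any other array, while those of ABR17_control and WT_salt covered nearly the same intensities.

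Set against the blank spots, the mean of miR158a lay 62.5 above the blank mean on ABR17_salt, below it on ABR17_control (−7.79), 16.7 above it on WT_salt and 360 above it on WT_control. In units of the blank SD this was 15.9, −0.59, 3.02 and 16.2. By this measure ABR17_salt and WT_control were close to each other, although their raw intensities differed severalfold. The rank of miR158a among the 213 probes, which needs no scaling between arrays, was 31 on ABR17_salt, 84 on ABR17_control, 64 on WT_salt and 26 on WT_control.

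miR158b was dim on every array and was detected on WT_control only. Its spots read 94.8 to 107 on ABR17_salt (median 97.1, with 3 of 12 above the threshold), 94.5 to 106 on ABR17_control (median 99.0, none of 12), 92.9 to 120 on WT_salt (median 98.2, 2 of 12) and 289 to 378 on WT_control (median 326, 9 of 12). On all arrays but WT_control these intensities coincided. Its ranks were 64, 175, 82 and 34 in the same order of arrays. On WT_control it stood 97.0 above the blank mean, or 4.36 blank SD.

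**Figure D1:**
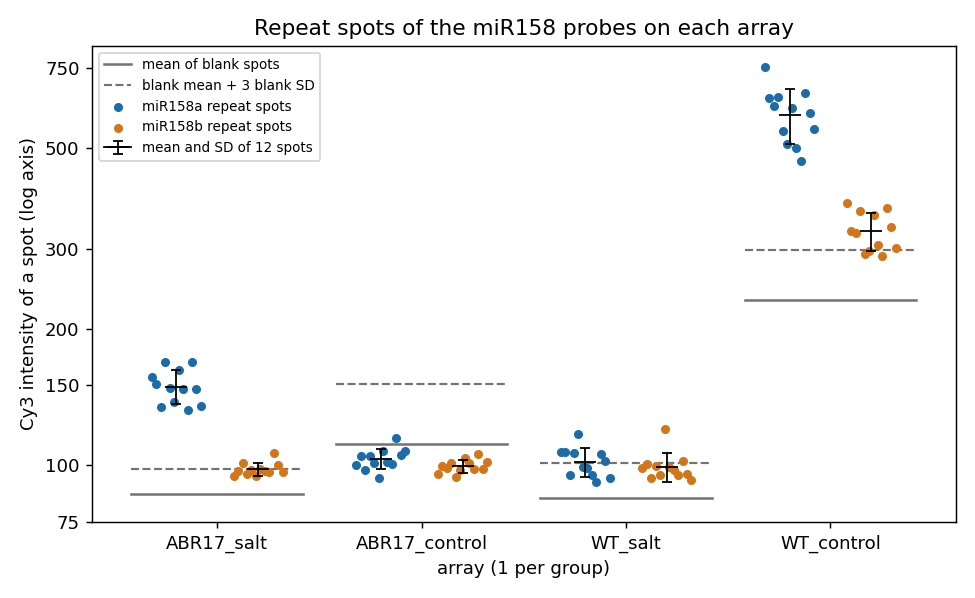
Cy3 intensity (log axis) of the 12 repeat spots of miR158a and miR158b on each of the 4 arrays, with the mean and SD of the spots in black, the mean of the blank spots as a solid line and the detection threshold (blank mean plus 3 blank SD) as a dashed line. All miR158a spots lie above the dashed line on ABR17_salt and WT_control, 6 of 12 do so on WT_salt and none on ABR17_control, where the blank mean of 111 exceeds the miR158a mean of 103.

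The repeat spots of a probe lie in 4 row blocks and 3 array columns, and the intensity of miR158a differed between the columns. For miR158a on WT_control the spots averaged 667 ± 59.9 in column 2, 570 ± 63.1 in column 12 and 536 ± 63.5 in column 22 (SD, 4 spots each). On ABR17_salt the same columns gave 164, 148 and 135. In each of the 4 row blocks of each array, the miR158a spot of column 2 was brighter than that of column 22. The SD over the 12 spots of miR158a therefore holds this gradient. It was not even on WT_salt, where the columns averaged 104, 105 and 94.9. For miR158b column 2 was brighter than column 22 in 4 of 4 blocks on WT_control and in 3 of 4 on each other array. Blank spots within 5 rows and columns of miR158a exist for 2 of its 4 row blocks. On ABR17_control they averaged 102 and 116, against 101 and 109 for the miR158a spots of those blocks, so miR158a did not rise above its nearest blanks there either. On WT_salt the nearest blanks averaged 87.6 and 82.7, and the miR158a spots beside them 103 and 100.

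For comparison between arrays the spots were background-corrected, put on the log2 scale and quantile normalised over the miRNA probes, so that miRNAs of equal rank receive equal values. A level in what follows is this normalised log2 intensity. The level of miR158a was 7.08 ± 0.15 (SD of 12 spots) on ABR17_salt, 6.22 ± 0.12 on ABR17_control, 6.31 ± 0.13 on WT_salt and 7.69 ± 0.26 on WT_control. From high to low the order was WT_control, ABR17_salt, WT_salt and ABR17_control. The spot ranges of the first neighbours in this order met at their edges (7.25 to 8.16 on WT_control, 6.88 to 7.30 on ABR17_salt), the middle ones were apart, and the last ones overlapped (6.12 to 6.58 on WT_salt, 5.999 to 6.46 on ABR17_control). The raw intensity of the calibration probe PUC2MM had the same order of arrays (11421, 4019, 1844 and 1176). The part of this in the order of the miR158a levels was not tested. For miR158b the levels were 6.31 ± 0.06 on ABR17_salt, 6.12 ± 0.08 on ABR17_control, 6.23 ± 0.13 on WT_salt and 6.79 ± 0.25 on WT_control. Here WT_control alone was detected.

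In wild-type seedlings miR158a was lower with salt. Its level was 6.31 on WT_salt and 7.69 on WT_control, which is 2.61-fold lower (−1.38 ± 0.09 on the log2 scale, where the error is the SE over repeat spots). A miRNA was counted as lower or higher where 1 or both arrays detected it, the difference (the bound, where 1 array did not detect it) was at least 2-fold and the repeat spots did not overlap. Of 58 miRNAs detected on at least 1 of these arrays, 3 were counted lower (5.17%), miR158a among them, and 2 higher (3.45%). Its difference was the second lowest of the 43 that could be given a value. miR158b was not detected on WT_salt, and its difference is a bound set by the lowest detected level there: lower by at least 0.51 on the log2 scale (a value of −0.51 ± 0.08). Its measured levels differed by −0.56. Its normalised spots overlapped (6.11 to 6.59 on WT_salt, 6.46 to 7.16 on WT_control), so it was not counted. Its raw spots did not overlap (92.9 to 120 on WT_salt, 289 to 378 on WT_control). Both probes were thus dimmer with salt in the wild type, as were the blank spots (means of 84.8 on WT_salt and 231 on WT_control). The size for miR158a rests on a WT_salt value at the detection threshold. For miR158b the value ran from −1.66 to −0.14 over 9 alternatives, the smallest with scaling on the calibration probes. miR158b was counted lower with scaling on the 5S rRNA probes (−1.50) and without normalisation (−1.23), and it passed 2-fold in the deposited values. In the authors' deposited values miR158a read 24.8 on WT_salt and 140 on WT_control (−2.50 on the log2 scale), and miR158b 13.5 on WT_salt and 42.7 on WT_control (−1.66). Without background correction the miR158a difference was −0.98, and with detection at 6 blank SD it became a bound of −0.69, and it was counted in neither.

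In the transgenic seedlings miR158a was detected on ABR17_salt and not on ABR17_control. Its measured levels were 7.08 on ABR17_salt and 6.22 on ABR17_control, of which the second lies at background. The raw spots of the arrays did not overlap (132 to 168.6 on ABR17_salt, 94.0 to 115.1 on ABR17_control). The blanks were dimmer on ABR17_salt (86.5 against 111). PUC2MM (4019 against 1176) and the median of the 5S rRNA spots (50225.6 against 36332.5) were brighter there. The part of these array differences in the miR158a values was not tested. No bound could be set, because the lowest detected level of ABR17_control, 7.29, exceeded the level of miR158a on ABR17_salt. Of 59 miRNAs detected on at least 1 of these arrays, 1 was counted higher (1.69%) and 0 lower (0%), and miR158a is in neither count. For miR158b, detected on neither array, the measured levels were 6.31 on ABR17_salt and 6.12 on ABR17_control, with overlapping spots and a difference of 0.19 ± 0.03 that turned to −0.21 under scaling on the 5S rRNA probes. In the authors' deposited values miR158a read 77.9 on ABR17_salt and 12.8 on ABR17_control (2.60 on the log2 scale). There miR158b read 18.7 on ABR17_salt and 7.14 on ABR17_control (1.39).

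No difference between the salt responses of the genotypes could be given for either probe, because neither was detected on ABR17_control and the response of the transgenic plants therefore has no value. Taken as they stand, the measured levels of miR158a differed by 0.86 between ABR17_salt and ABR17_control and by −1.38 between WT_salt and WT_control, which lie 2.24 apart. The first of these is set against a signal below the blank mean, so the direction of the response in the transgenic plants is not established by it.

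Between the genotypes without salt, ABR17_control was set against WT_control. miR158a was not detected on ABR17_control, and the bound is a level lower by at least 0.40 on the log2 scale (a value of −0.40 ± 0.08). Its measured levels, 6.22 on ABR17_control and 7.69 on WT_control, differed by −1.47, with spots that did not overlap. The bound is weak because the detection threshold of ABR17_control was high relative to its miRNA spots, whose median was 103. Of 39 miRNAs detected on at least 1 of these arrays, 2 were counted higher (5.13%) and 2 lower (5.13%). Neither miR158 probe was counted by the bound, but miR158a was counted with scaling on the 75th percentile, on the 5S rRNA probes and without normalisation. miR158b had measured levels of 6.12 on ABR17_control and 6.79 on WT_control, a difference of −0.67 for which no bound could be set. In the authors' deposited values the differences were −3.45 for miR158a and −2.58 for miR158b.

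Under salt, ABR17_salt and WT_salt were the arrays with the closest blank means, but PUC2MM read 4019 on ABR17_salt and 1844 on WT_salt. The part of this in the values below was not tested. miR158a was higher in the transgenic plants, at a level of 7.08 on ABR17_salt and 6.31 on WT_salt, 1.71-fold apart (0.77 ± 0.06 on the log2 scale). Its raw spots did not overlap (132 to 168.6 on ABR17_salt, 91.8 to 117 on WT_salt). The difference was the second highest of 59 with a value but missed the 2-fold size, and none of the 62 miRNAs detected on at least 1 of the arrays was counted higher (0%) or lower (0%). It came to 1.65 in the authors' deposited values and to 1.21 with a smaller offset in the background correction, both past 2-fold. With detection at 6 blank SD, where WT_salt no longer counts as detected, the bound was 0.083. miR158b, detected on neither array, stood at 6.31 on ABR17_salt and 6.23 on WT_salt with overlapping spots, and the sign of this difference turned under 4 of 10 alternatives.

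**Figure D2:**
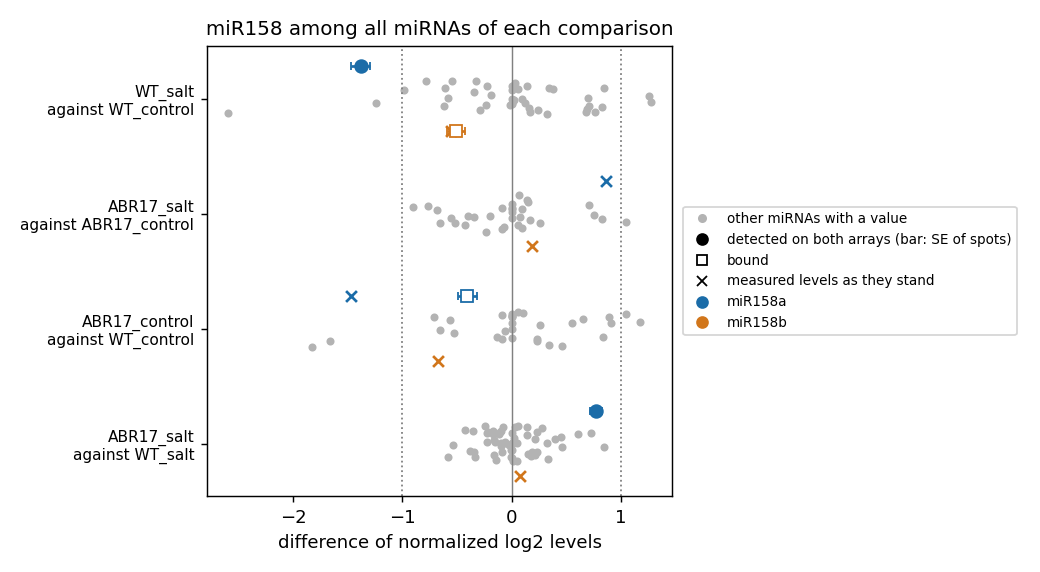
Difference of normalised log2 levels for each comparison (rows), the first-named array minus the second. Grey points are the other miRNAs with a value, coloured circles miR158a or miR158b where both arrays detected it (bars, SE of 12 repeat spots), open squares bounds and crosses measured levels where at least 1 array did not detect the probe, and dotted lines mark 2-fold. miR158a lies at −1.38 for WT_salt against WT_control and at 0.77 for ABR17_salt against WT_salt, and miR158b has a bound of −0.51 for WT_salt against WT_control and measured levels elsewhere.

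The scaling between arrays moved the level of all miRNAs, and miR158a was followed relative to it. Over 6 scalings the median difference of the miRNAs detected on both arrays ran from −1.18 to 0.17 for WT_salt against WT_control, from −0.48 to 0.00 for ABR17_salt against ABR17_control, from −0.54 to 0.81 for ABR17_control against WT_control and from −0.25 to 0.35 for ABR17_salt against WT_salt. The measured difference of miR158a minus that median lay between −1.58 and −0.96 for WT_salt against WT_control and between 0.70 and 0.94 for ABR17_salt against ABR17_control. It lay between −2.21 and −1.11 for ABR17_control against WT_control and between 0.48 and 0.83 for ABR17_salt against WT_salt. Of these scalings, 4 (75th percentile, 5S rRNA probes, calibration probes and none) shift all probes of an array alike, so they give 1 and the same value relative to the median by construction, and 3 distinct values stand behind each range. The sign relative to the median was the same in these 3. All scalings use the same 4 hybridisations.

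**Figure D3:**
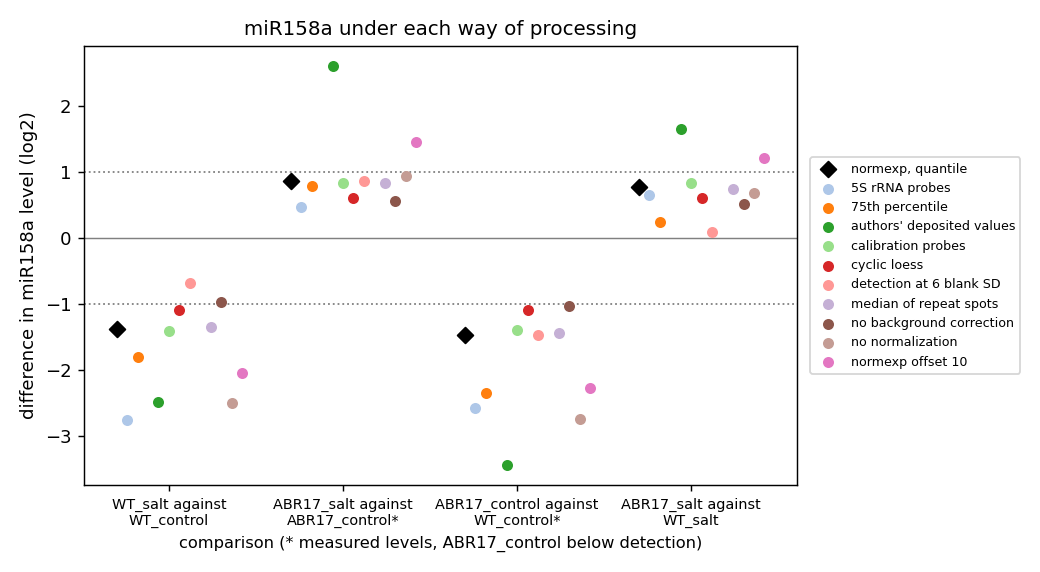
Difference in miR158a level (log2) for each comparison under the normexp and quantile processing used in the text (black diamond) and under each alternative (circles). Asterisks mark comparisons given by measured levels because ABR17_control was below detection. Values for WT_salt against WT_control run from −2.77 to −0.69 and those for ABR17_salt against WT_salt from 0.083 to 1.65, and none crosses 0 in any comparison.

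The probes of the family were then set against each other. A spot of miR158b lies directly beside each spot of miR158a, in the next row of the same column, so the 12 adjacent pairs share their position on the array. miR158a was the brighter in 12 of 12 pairs on ABR17_salt, in 10 of 12 on ABR17_control, in 8 of 12 on WT_salt and in 12 of 12 on WT_control. The mean excess of miR158a was 50.9 ± 12.3 (SD of the pairs) on ABR17_salt, 3.78 ± 3.65 on ABR17_control, 2.28 ± 10.03 on WT_salt and 263 ± 53.9 on WT_control. The probes thus parted on the arrays where miR158a was clearly detected, and differed by about the spread of the pairs or less where it was undetected or, on WT_salt, at the detection threshold. Above the blank mean, miR158b had 18.5% of the miR158a signal on ABR17_salt (11.6 against 62.5, with miR158b not detected) and 26.9% on WT_control (97.0 against 360). On WT_salt it had 86.3% (14.4 against 16.7), with miR158b not detected and miR158a at the detection threshold. The brightness of a probe depends on its sequence as well as on the RNA, so these shares are not shares of the miRNAs.

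Of the probe pairs that hold a probe detected on at least 1 array, 3 differ at base 1 alone. Their sequences are shown with that base in capitals, to set the other pairs beside U1C of miR158.
miR158a: Ucccaaauguagacaaagca
miR158b: Ccccaaauguagacaaagca
miR156a: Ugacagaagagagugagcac
miR156g: Cgacagaagagagugagcac
miR172a: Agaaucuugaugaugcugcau
miR172e: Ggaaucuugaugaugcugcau
The miR156 pair, whose members target SPL transcription factors, carries the same U1C change. Above the blank mean, miR156g had 98.1% of the miR156a signal on ABR17_salt, 105% on ABR17_control, 98.3% on WT_salt and 101% on WT_control. The signals of these probes were nearly equal on every array, in contrast to the 26.9% of miR158b on WT_control. How far the probes of either pair distinguish their RNAs was not tested. For miR172a and miR172e, which target AP2-type transcription factors and differ by A1G, the signals above the blank mean were small, and miR172e had 155% of the miR172a signal on ABR17_salt (19.3 against 12.5), the single array on which both were detected.

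In all, 22 pairs of miRNA probes on the array have targets of equal length that differ at 1 base, and 17 of them hold a probe detected on at least 1 array. On WT_control, where both miR158 probes were detected, 9 pairs had both probes detected. The miR158 pair was the most unequal of these, and the share of the second-named probe in each pair was 50.2% to 102% in the other 8. Those 8 comprised miR319c and miR319a (50.2%), which target TCP factors, miR159b and miR159c (70.7%), which target MYB factors of the GAMYB type, and miR166a and miR165a (78.5%), which target class III homeodomain-leucine zipper genes. They also comprised miR157d and miR156h (77.2%), miR398b and miR398a (92.2%), which target copper/zinc superoxide dismutases, miR159b and miR159a (100.4%), miR156a and miR156g (101%), and miR164c and miR164a (102%), which target NAC factors. Other arrays held detected pairs that were also unequal: miR319a had 27.9% of the miR319c signal on ABR17_salt, and miR156h 14.1% of the miR157d signal on ABR17_salt and 3.74% on WT_salt. miR158b was detected on neither of these arrays, so its pair has no place among them.

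**Figure D4:**
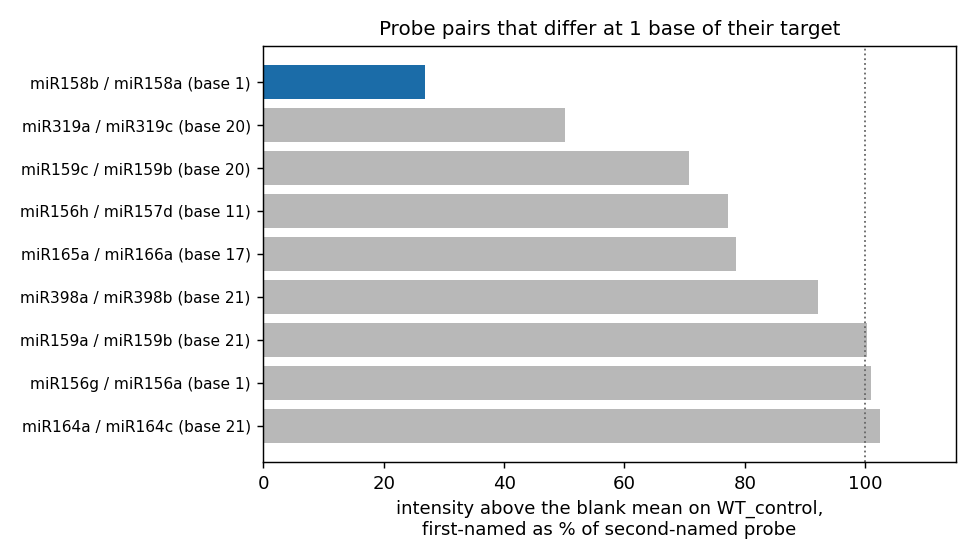
Intensity above the blank mean on WT_control, for the 9 probe pairs whose targets differ at 1 base and which were both detected there. Each bar gives the probe written before the slash as a percentage of the one after it (miR158b / miR158a), with the base that differs in brackets; miR158b reaches 26.9% of miR158a, and the other pairs lie between 50.2% and 102%.

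The miRNAs whose levels followed the arrays most like miR158a were sought among the other 62 detected on at least 1 array, by the root mean square distance of levels centred over the 4 arrays. The nearest was miR5021 (distance 0.17 on the log2 scale), then miR319c (0.32), miR391 (0.35), miR158b (0.38) and miR834 (0.40). miR5021 had a level of 8.68 on ABR17_salt, 7.93 on ABR17_control, 8.35 on WT_salt and 9.59 on WT_control, and was detected on all 4 arrays. Its mean spot intensities were 415, 236, 207 and 1212 in the same order, above the detection thresholds. Like miR158a it was highest on WT_control and next highest on ABR17_salt, as was PUC2MM (11421 and 4019). As miR5021 was picked by its likeness over these arrays, its pattern is no separate evidence for the values of miR158a. Over the same 4 points Pearson's r put miR391 first (0.99) and miR5021 in place 4 (0.96), which is a description, as 4 arrays share their brightness across all probes. miR158b itself took place 4 by distance and place 8 by r (0.93). Nearest to miR158b were miR391 (0.09), miR834 (0.13), miR172a (0.15), miR172e (0.19) and miR5018 (0.21), all dim probes detected on 1 to 3 of the arrays.

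Families of the Brassicaceae lineage, miR158 among them, were described as a list. As it holds miR158a and miR158b, its counts and medians do not compare the other families with miR158. This list of the miR158, miR161, miR163, miR173, miR400 and miR824 families had 8 probes, 7 detected on at least 1 array. For WT_salt against WT_control 0 of the 6 members detected on 1 or both arrays were counted higher and 1 lower, miR158a (2 of 58 higher, 3.45%, and 3 of 58 lower, 5.17%, over all miRNAs). The median over the 5 detected on both arrays, miR158a included, was 0.09, and 0.00 over all 35 such miRNAs. The others of the 5 stood at −0.24 (miR824), 0.09 (miR161.1), 0.69 (miR173) and 0.85 (miR163). For ABR17_salt against ABR17_control 1 of 6 was counted higher (miR824, which targets AGAMOUS-LIKE16, at 1.05; 1 of 59, 1.69%, over all), and the median over 4 was 0.49, against 0.00 over all 30. For ABR17_control against WT_control 1 of 6 was counted higher (miR163, which targets SAM-dependent methyltransferases, at 1.18; 2 of 39, 5.13%, over all; median over 4 of 0.10, and 0.00 over all 30). For ABR17_salt against WT_salt 0 of 6 were counted (0% higher and 0% lower over all miRNAs). The median over 5, miR158a included, was 0.40, against −0.06 over all 51. The others of the 5 stood at 0.73 (miR824), 0.00 (miR161.1), 0.40 (miR173) and −0.09 (miR163). Under salt miR824 differed between the genotypes by 0.73, next to 0.77 for miR158a.

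Of the families that target PPR transcripts (miR158, miR161 and miR400), miR161.1 was among the brightest miRNAs and nearly level, at 10.30 on ABR17_salt, 10.15 on ABR17_control, 10.30 on WT_salt and 10.21 on WT_control. It is near the top of the ranks that the normalisation fixes. miR161.2 was detected on ABR17_salt only, at a level of 6.52, and miR400 on no array. Of 5 probes in this list, miR158a was thus the one counted member, lower for WT_salt against WT_control (5.17% counted lower over all miRNAs). The 2 members detected on both of these arrays were miR158a (−1.38) and miR161.1 (0.09). Their median of −0.64 therefore reflects miR158a itself and is no shift of the list. In the other comparisons none of the 3 members detected on 1 or both arrays was counted. Over all miRNAs 1.69% were counted higher and 0% lower for ABR17_salt against ABR17_control. The shares were 5.13% each way for ABR17_control against WT_control and 0% each way for ABR17_salt against WT_salt. The list medians were 0.15 over 1 member for ABR17_salt against ABR17_control and −0.06 over 1 for ABR17_control against WT_control. For ABR17_salt against WT_salt the median was 0.39 over 2, again miR158a (0.77) and miR161.1 (0.00). Among the families named as salt responsive in Arabidopsis (28 probes, 23 detected on at least 1 array), 1 of 22 members detected on 1 or both arrays was counted higher and 2 lower for WT_salt against WT_control, miR158a being 1 of the lower ones (3.45% and 5.17% over all miRNAs). None of 22 was counted for ABR17_salt against ABR17_control (1.69% higher and 0% lower over all), 1 of 17 was counted lower for ABR17_control against WT_control (5.13% over all), and none of 22 was counted for ABR17_salt against WT_salt (0% over all). The list medians were 0.00 over 16, −0.04 over 14, 0.03 over 14 and 0.00 over 21 members, and those over all miRNAs detected on both arrays 0.00, 0.00, 0.00 and −0.06.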

How the data were processed

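The members and the lists were chosen with earlier results of these data known. Per the labels' protocols, small-RNA-enriched total RNA received a 3′ adapter and was stained with Cy3 by a service provider. Each deposited spot file gives the mean density of 3968 spots, a linear intensity with no background subtracted per the file headers. Of these, 2556 spots carry 213 miRNA probes (12 each), 1120 are blank, 268 are calibration spots and 24 carry 5S rRNA probes. The authors also deposited 1 processed intensity per miRNA and array, whose correction and scaling the labels do not state. Over the detected miRNAs, log2 of this value and log2 of the blank-subtracted spot mean correlated at r = 0.999 (ABR17_salt), 0.998 (ABR17_control), 0.993 (WT_salt) and 0.987 (WT_control), and its column medians were 9.38, 11.2, 10.3 and 12.6. It is therefore linear and not centred, with unknown scaling.

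Spots were corrected with normexp (limma 3.58.1, R 4.3.3, offset 50), averaged as log2 over 12 spots and quantile normalised. The offset draws differences of dim probes towards 0. A probe detected on 1 of 2 arrays was given a bound: the array without detection was set to its own level or to its lowest detected level, whichever was higher, and no bound was given where that exceeded the detected level. No p-value was computed, since 1 array per group leaves no error term; precision is limited by the number of arrays. Named miRNAs are the members, the 5 nearest in pattern to each, the detected pairs with 1 mismatch and the lists. The procedure was tested on simulated spots. A first simulation, with changes planted among the brightest probes on 1 array, recovered only part of them; the offset and the rank-based normalisation compress sizes. The simulation was then redesigned, with changes at bright probes just below the very brightest that included a larger size, and recovered all of those. The simulated levels were otherwise the same on every array, so differences of scale between arrays were not simulated. The redesign followed that failure, and changes of the brightest and of the dim probes were not simulated again. All changes planted in the redesign were larger than 2-fold, so recovery near the 2-fold size used for counting was not simulated there. The alternatives were 2 other background settings, 5 other scalings, the median of spots, detection at 6 blank SD and the authors' deposited values.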

Additional observations from a re-analysis of the deposited data

Results flagged for a closer look

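By measured levels taken as they stand, miR158a differed by 0.86 (log2) between ABR17_salt and ABR17_control and by −1.38 between WT_salt and WT_control, and these values lie 2.24 apart. They drew attention because their signs differ, but miR158a was not detected on ABR17_control, so the first has no value under the detection rule and opposite responses are not shown. The difference was not tested, as each group has 1 array. WT_control, which also enters it, had the brightest blank spots and the brightest calibration probe PUC2MM (11421, against 1176 to 4019 on the other arrays), and the part of this in the result was not tested.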

How the results depend on the processing

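The differences of miR158a kept their sign under each alternative that gave a value, and their sizes did not. No paired analysis was possible because each group has 1 array. For WT_salt against WT_control the difference was −2.77 with 5S rRNA scaling, −1.81 with the 75th percentile, −2.50 in the authors' deposited values and also without normalisation, −2.05 with normexp offset 10, −0.98 without background correction and −0.69 with detection at 6 blank SD. It was past 2-fold in 8 of 10. The bound for ABR17_control against WT_control was −1.65 with scaling on 5S rRNA, −1.82 when arrays were not normalised and −1.42 with the 75th percentile, and detection at 6 blank SD gave none; the deposited values, which have no detection floor, differed by −3.45. By measured levels that difference was −2.58, −2.75 and −2.36 in the same settings, −1.10 with cyclic loess, −1.04 without background correction and −2.28 with offset 10. For ABR17_salt against ABR17_control the measured levels gave 0.46 with 5S rRNA scaling, 0.61 with cyclic loess, 0.56 without background correction, 1.44 with offset 10 and 2.60 in the deposited values. For ABR17_salt against WT_salt the values were 0.23 with the 75th percentile, 1.65 in the deposited values, 0.083 with detection at 6 blank SD, 0.51 without background correction and 1.21 with offset 10. The difference of the salt responses by measured levels was 3.23 with 5S rRNA scaling, 1.70 with cyclic loess, 1.54 without background correction, 3.43 without normalisation, 3.50 with offset 10 and 5.10 in the deposited values. Differences of miR158b between arrays that did not detect it turned sign: for ABR17_salt against ABR17_control to −0.21 with 5S rRNA scaling, and for ABR17_salt against WT_salt (0.079 in the text's processing) to −0.060 with 5S rRNA scaling, −0.48 with the 75th percentile, −0.036 with cyclic loess and −0.034 without normalisation. With detection at 6 blank SD miR158b was detected on no array. The log2 ratio of miR158a over miR158b was 2.43 on ABR17_salt and 1.89 on WT_control from linear means above the blank mean (0.78 and 0.90 from normalised levels). By correlation miR5021 took place 4 in likeness to miR158a.

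The counts past 2-fold moved most. For WT_salt against WT_control, 5 became 25 (5S rRNA, 0 higher and 25 lower), 11 (75th percentile, 0 and 11), 17 (deposited values, 5 and 12), 17 (no normalisation, 0 and 17), 8 (calibration probes, 1 and 7), 8 (offset 10, 4 and 4) and 3 (6 blank SD and no background correction, 1 and 2 each). For ABR17_control against WT_control, 4 became 10, 9, 15 and 12 in the first 4 of these settings, with 0, 0, 5 and 0 higher, then 12 with calibration probes (10 higher), 7 with offset 10 (5 higher) and 2 without background correction (0 higher). For ABR17_salt against ABR17_control, 1 became 5 (5S rRNA, all lower), 2 (75th percentile and offset 10, 1 higher each), 16 (deposited values, 12 higher) and 0 (6 blank SD and no background correction). For ABR17_salt against WT_salt, 0 became 3 (5S rRNA and no normalisation), 7 (deposited values), 4 (calibration probes) and 2 (offset 10), all higher. The causes were not tested. The signal over the blank spots limits miR158a on WT_salt and ABR17_control and miR158b on every array.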
